A study of Mus musculus with 12 samples.

Results

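Insulin-like growth factors (IGFs), their receptors and their binding proteins were examined in HT22 cells, a line of immortalized mouse hippocampal neurons. The group comprised the ligand genes Igf1 and Igf2 and the receptor genes Igf1r and Igf2r. It also held the binding protein genes Igfbp2, Igfbp3, Igfbp4, Igfbp5, Igfbp6 and Igfbp7. The genes were taken by symbol, with earlier results of these data known when the group was chosen. All 10 genes were found among the 25239 genes of the expression table, and none of them among the 2643 N6-methyladenosine (m6A) peaks of the peak table. The series holds 12 libraries of wild-type HT22 cells. They consist of 3 input and 3 anti-m6A immunoprecipitation (IP) libraries from cells exposed to 800 μM mesaconitine (MA), a diterpenoid alkaloid of Aconitum plants, for 72 h, and 3 of each from control cells at 0 μM. The expression table holds 1 level per gene over both conditions, the base mean, which is the mean of the normalised counts of its libraries. The fold changes and p-values that the authors deposited are not used here, so no difference between MA-treated and control cells is given for the 10 genes.

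IGF1 and IGF2 are small secreted hormones that promote growth and survival. They signal through the IGF1 receptor, a receptor tyrosine kinase that recruits insulin receptor substrates and activates the PI3K and AKT pathway. The IGF2 receptor, which also binds mannose 6-phosphate, clears IGF2 and sorts enzymes to lysosomes, and the secreted binding proteins hold the ligands outside the cell and control their access to the receptors. In the brain, IGF1 supports the survival of neurons and the growth of their processes.

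Most markers of mature neurons were listed at 0 or at few counts. Of 15 neuronal marker genes, 7 were listed at a base mean of 0, among them Map2, Snap25, Nefl and Dcx, and 4 more lay under 10. For comparison, 9061 of all 25239 genes were at 0, 1308 lay above 0 and up to 1, and 2435 from 1 to under 10. The nuclear neuronal marker Rbfox3 had a base mean of 1.15. Tubb3, Eno2 and Syn1 reached 473, 534 and 710. All 7 fibroblast or mesenchyme markers had base means from 1573 for Pdgfrb to 286199 for Fn1. Of 6 astrocyte markers 1 was at 0 and 3 reached 10 or more, with Slc1a3 at 1140 and Gfap at 0.65. Of 5 microglial markers 1 was at 0 and 2 reached 10 or more, with Tmem119 at 303. Of 5 oligodendrocyte markers 3 were at 0, and all 4 endothelial markers lay under 10. The part of this marker pattern in the levels below was not tested, and in bulk libraries fewer cells of a type cannot be told apart from less RNA per cell.

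Binding protein and receptor genes stood at the top of the group, and 4 of the 10 genes had few or no counts. Of all 25239 genes, 9061 were listed at 0, 1308 had a base mean above 0 and up to 1, and 2435 from 1 to under 10. Few or no counts in 4 of 10 genes is therefore no result about the group. Levels were compared between genes only after division by the length of the longest coding transcript, as base mean per kb, and the median of all genes above 0 on this scale was 193. Igfbp6, Igfbp7, Igf1r and Igf2r lay above this median, Igf1 and Igfbp4 below it. Igfbp2, Igfbp5 and Igf2 were near the lower end of all measured genes, and Igfbp3 was listed at 0. The order of all 10 genes was the same when the union of all exons replaced the longest transcript. The spread between libraries is not contained in the values used here, so whether neighbours in this order differ beyond it was not tested.

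**Figure D1:**
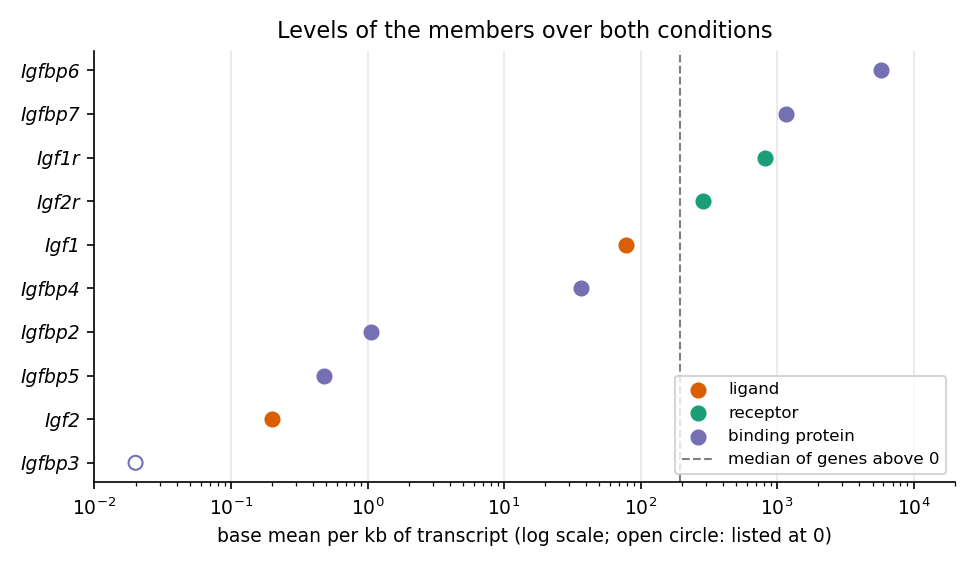
Base mean per kb of transcript on a log axis for the 10 genes, coloured by role, with 1 point per gene over both conditions and no error bars because only the mean was used. The points run from Igfbp6 at 5725 down to Igf2 at 0.20, with Igfbp3 listed at 0 as an open circle at an arbitrary position, and the dashed line marks the median of 193.

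Among the receptors, Igf1r had a base mean of 9251, the highest of the 10 genes before division by length. Its transcript is long, with 11409 bases in 21 exons, and its level per kb was 811, above 77.8% of the genes above 0. Igf1r lies on chromosome 7 from 67952827 to 68233668 on the plus strand of GRCm38, the assembly of mm10. Igf2r, on the minus strand of chromosome 17 from 12682406 to 12769664, had a base mean of 2558 over a transcript of 8887 bases in 48 exons. This gave 288 per kb, above 57.0% of the genes. Per kb, the level of Igf1r was 2.82 times that of Igf2r. Stretches of 50 bases laid end to end, 228 for Igf1r and 177 for Igf2r, had no exact match in an annotated transcript of another gene. Near copies and sequences outside the annotation were not checked.

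The ligand genes were at very different levels. Igf1, on chromosome 10 from 87858265 to 87937042, had a base mean of 555 and a level per kb of 78.7, above 39.3% of the genes. Igf2, on chromosome 7 from 142650766 to 142666816, had a base mean of 0.95 and a level per kb of 0.20, above 2.54% of the genes. The transcript annotated as Gm49394 overlaps Igf2 on the same strand, and 71 of the 94 stretches of 50 bases in the Igf2 transcript are shared with it. The level of Igf2 is therefore uncertain, and Gm49394 itself was not analysed here. H19, the noncoding RNA of the same imprinted region, also had a low base mean, 1.63. Airn, the noncoding RNA that overlaps the start of Igf2r on the other strand, had a base mean of 0.90.

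Of the binding protein genes, Igfbp6 was by far the highest. IGFBP6 is known for its preference for IGF2 over IGF1. Igfbp6, on chromosome 15 from 102144362 to 102149511, had a base mean of 6366 over a short transcript of 1112 bases, or 5725 per kb, above 97.6% of the genes. Igfbp7, on chromosome 5 from 77349240 to 77408041, encodes a secreted protein that binds IGFs weakly. It had a base mean of 1394 and a level per kb of 1161, above 84.3% of the genes. Igfbp6 was 4.93 times as high as Igfbp7 per kb, and Igfbp7 was 1.43 times as high as Igf1r. Exons of Polr2b on the opposite strand cover 85 bases, or 7.03%, of the Igfbp7 exons, and whether strand was used in counting is not given in the sources used here.

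Igfbp4, whose product is cut by the protease PAPP-A to free bound IGF, had a base mean of 140 and a level per kb of 36.4, above 33.2% of the genes. It lies on chromosome 11 from 99041244 to 99054392. Igfbp2 and Igfbp5 are neighbours on chromosome 1, from 72824503 to 72852474 and from 72857932 to 72874884. Their base mean per kb was 1.07 for Igfbp2 and 0.48 for Igfbp5. Igfbp3, on chromosome 11 from 7206086 to 7213923, encodes the main IGF carrier of the blood and was listed at 0. Igfbp4 was 34.1 times as high per kb as Igfbp2, the largest step between neighbours among the 9 genes above 0.

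**Figure D2:**
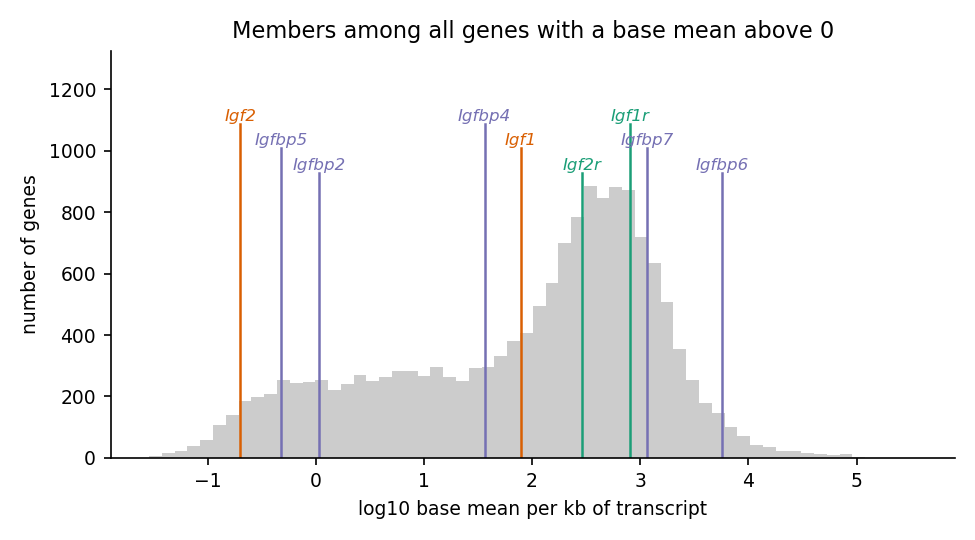
Histogram of log10 base mean per kb for the 15743 genes above 0 that matched the annotation, with vertical lines at the 9 members above 0, coloured as ligand (orange), receptor (green) or binding protein (purple). Igf1r, Igf2r, Igfbp6 and Igfbp7 sit in the main peak or on its right flank, whereas Igf2, Igfbp2 and Igfbp5 sit at the left end, above at most 11.4% of the genes.

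Low base means could be read as whole counts. The study's methods name StringTie for expression levels, and whether 1 count is 1 sequenced read was not tested. Genes with a single count took only 6 different base means, 1 for each library with its own size factor, over 154 genes. The 6 size factors computed from these steps ran from 0.938 to 1.11, so the base mean was taken over 6 libraries of similar depth. Which 6 of the 12 libraries these are is not stated, and the steps carry no condition. The base means of Igf2bp1 and Igf2bp2 equal those the paper lists for mRNA expression after MA treatment. By the design, the 6 libraries would then be the 3 input libraries of each condition. Each of the 2544 genes with a base mean above 0 and under 3 had exactly 1 solution in whole counts.

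Igfbp5 rested on a count of 17, placed as 7, 5 and 5 in 3 libraries with none in the other libraries. Igfbp2 rested on a count of 8, all in 1 library. Igf2 rested on a count of 6, with 4 in 1 library and 2 in another. These counts were thus not spread evenly across the libraries. Such placement was common among low counts. Of the 811 genes with a count of 6 to 10, 48.8% had all of it in 1 library. Of the 584 genes with a count of 11 to 20, 76.9% had it in at most 3. The order of Igfbp2, Igfbp5 and Igf2 rests on these low counts. All 18 genes used by every cell, on a list written after the files were seen, had base means of at least 647. Their levels differed widely, with Gapdh at 893, Actb at 54350 and Eef1a1 at 153525. Whether counts of some genes were lost was not tested. Of 82 ribosomal protein rows 2 were listed at 0, Rpl3l and Rpl10l, which are paralogs of restricted expression. A listed 0 does not show that a gene is silent, and Igfbp3 is given as listed at 0 and not as absent.

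Promoters of the group were compared with the levels, because a promoter rich in CG dinucleotides is a common feature of widely expressed genes. Sequences were those of RefSeq on GRCm38.p6, from 250 bases before to 50 bases after each annotated start, and 14 promoters matched the 10 genes. Some RefSeq starts differ from the GENCODE gene positions given above. The Igfbp6 promoter ends at 102144235, before the gene start at 102144362, and that of Igf1r at 67952306, before 67952827. The Igf1 promoter, from 87860861 to 87861160, lies inside the gene. Promoters at the GENCODE starts were not examined. Over all promoters of the same length the median was 7 CG dinucleotides. Igf1r had 48, Igf2r had 34, Igfbp7 had 33 and Igfbp4 had 27. Igfbp3, although listed at 0, had 37, and Igfbp6, the highest gene per kb, had 8. Igf1 had 6 and Igfbp5 had 10, Igfbp2 had 18 and 14 at its annotated starts, and the Igf2 starts ranged from 2 to 24. Across all genes of the table, 11.03% of the 3091 genes with 30 or more CG dinucleotides were listed at 0, against 45.87% of the 2529 genes with 5 to 9. The median level of the genes with 5 to 9 was 0.29 per kb, and that of the genes with 30 or more was 367. Igfbp3 was thus among the less common cases of its class, and Igfbp6 lay far above the median of its own.

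The stretches of 250 bases before the RefSeq start are shown for Igf1r, with a CG-rich promoter and a high level, Igfbp3, with a CG-rich promoter and no listed reads, and Igfbp6, with few CG dinucleotides and the highest level. They are written in the direction of transcription, with each CG dinucleotide in capitals. Before the start, Igf1r had 42, Igfbp3 had 32 and Igfbp6 had 7. The positions are chr7:67952007-67952256 on the plus strand, chr11:7213924-7214173 on the minus strand and chr15:102143936-102144185 on the plus strand.

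Igf1r: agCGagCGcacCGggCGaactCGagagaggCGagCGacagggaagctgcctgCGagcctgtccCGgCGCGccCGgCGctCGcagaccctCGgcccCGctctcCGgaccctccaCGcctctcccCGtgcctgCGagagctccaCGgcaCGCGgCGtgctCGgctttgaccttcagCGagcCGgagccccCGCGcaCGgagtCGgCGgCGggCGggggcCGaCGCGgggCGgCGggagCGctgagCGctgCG

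Igfbp3: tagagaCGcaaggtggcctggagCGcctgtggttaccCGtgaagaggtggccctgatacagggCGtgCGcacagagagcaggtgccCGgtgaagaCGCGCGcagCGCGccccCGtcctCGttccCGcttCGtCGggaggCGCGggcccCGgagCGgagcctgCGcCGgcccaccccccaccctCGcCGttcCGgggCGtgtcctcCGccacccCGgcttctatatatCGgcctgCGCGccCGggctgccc

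Igfbp6: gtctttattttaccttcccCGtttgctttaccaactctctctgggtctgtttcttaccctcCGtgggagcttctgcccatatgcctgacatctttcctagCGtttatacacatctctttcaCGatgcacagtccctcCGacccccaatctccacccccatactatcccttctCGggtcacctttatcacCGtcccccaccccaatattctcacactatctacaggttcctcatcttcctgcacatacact

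**Figure D3:**
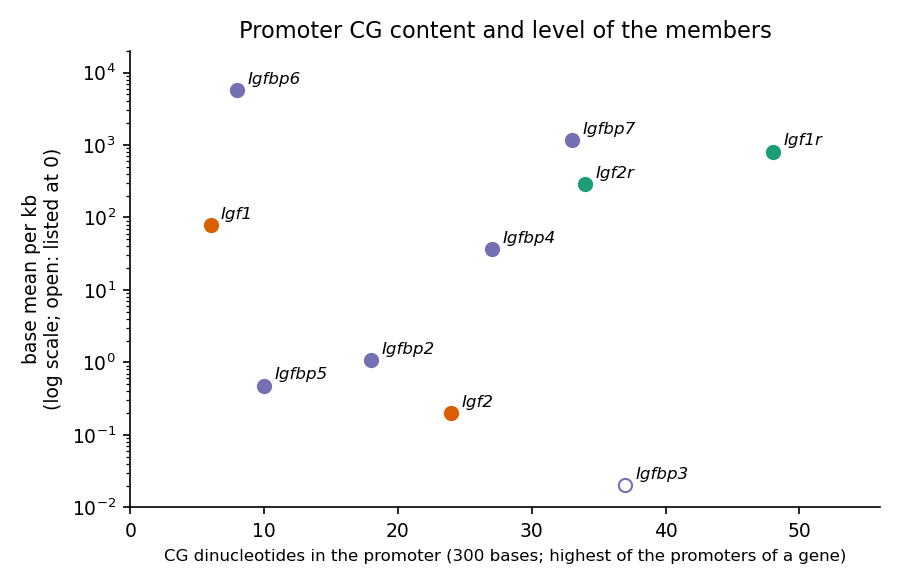
Number of CG dinucleotides in the 300-base promoter, the highest where a gene has several, against base mean per kb on a log axis, 1 point per gene with no error bars, coloured as ligand (orange), receptor (green) or binding protein (purple). Igf1r, Igf2r and Igfbp7 combine many CG dinucleotides with a high level, Igfbp6 has 8 and the highest level, and Igfbp3 has 37 and is listed at 0 (open circle at an arbitrary position).

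The other genes of the pathway were described by a list of 38, all present in the table. Of the 38 genes 5 were at 0, as were 9061 of all 25239 genes of the table. Another 4 lay under a base mean of 10, and 22 lay above the median level per kb, as did 4 of the 10 members. This median was taken over the 15743 matched genes above 0, out of 24374 matched genes. Genes at 0 lie below it, so these counts are not read as a result about either list. Insr, the insulin receptor gene, had 327 per kb, and Insrr was listed at 0. Irs1 and Irs2, which encode the docking proteins of both receptors, had 596 and 564 per kb, and Irs4 was listed at 0. Of the 9 genes for PI3K subunits, PDPK1 and AKT kinases, 8 lay above the median. The exception was Pik3cd.

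The genes for other binding proteins or partners all lay below the median per kb, as did those for proteases of binding proteins and their inhibitors. Igfbp1 and Igfbpl1 were listed at 0, and Igfals, the partner of IGFBP3 in the blood, had 3.85 per kb. Pappa and Pappa2, which encode proteases of IGF binding proteins, had 0.49 and 1.98 per kb, and their inhibitors Stc1 and Stc2 had 3.55 and 22.7. Htra1, which encodes another secreted protease, had the highest level of this set, 111 per kb. The 3 genes for IGF2 mRNA-binding proteins, which take their name from Igf2 mRNA, all lay above the median although Igf2 itself had 0.20 per kb.

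**Figure D4:**
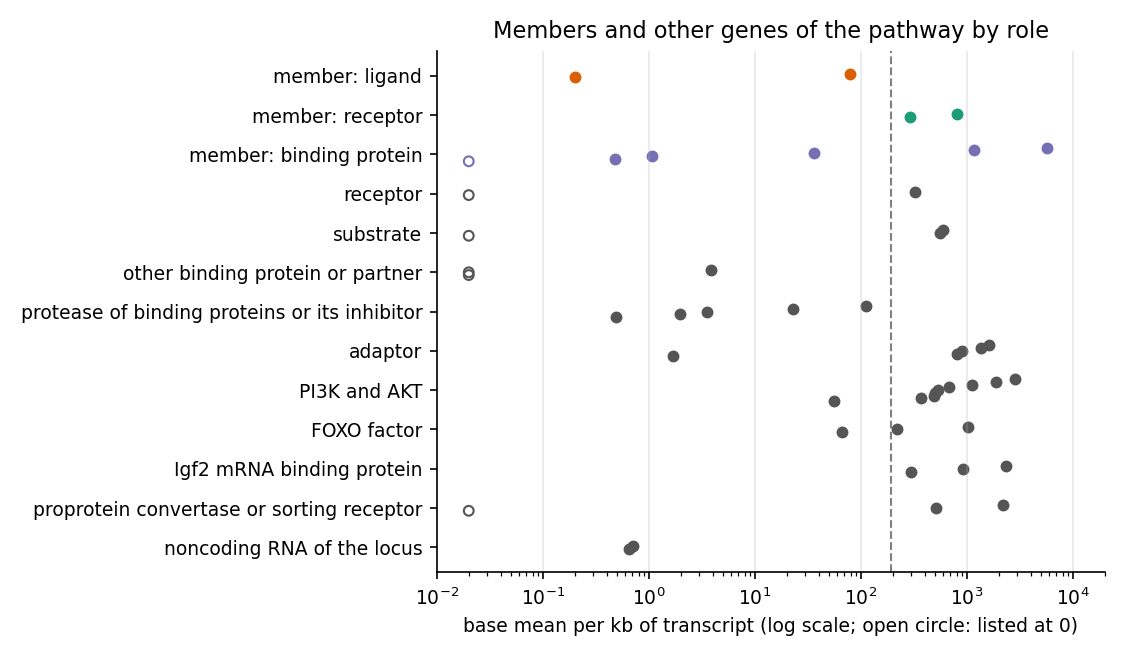
Base mean per kb on a log axis for the 10 members (coloured) and the 38 other genes of the pathway (grey) by role, 1 point per gene without error bars, with genes listed at 0 as open circles at an arbitrary position. Genes of PI3K and AKT signalling lie mostly to the right of the dashed median of 193, and the proteases of binding proteins and their inhibitors lie to its left.

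In MeRIP-seq, fragments carrying m6A are enriched with an antibody, and the deposited table of 2643 peaks listed none on the 10 genes. No peak carried a member's name, and 0 peaks lay between the first and the last exon base of any member on either strand. Of the 10 genes, 6 had a base mean between 100 and 10000, where peaks were listed for 18.5% of the 3979 genes under 1000 and for 19.2% of the 5710 genes from 1000 upwards. A share of peaks near 0 in a group of this size is therefore no result about the group. The table holds 1 set of peaks for both conditions. The paper reports more m6A peaks than are listed there, and a gene with no listed peak can still carry m6A.

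The pathway list carried 9 peaks on 7 genes. Reads of the 3 replicates of each group are pooled in the table, so there is 1 value per group, no test between conditions could be made, and intervals cover counting error only. Over all peaks the control cells had 288659 input and 267002 IP reads, the MA-treated cells 214778 and 359889, and each group was scaled to its total. A peak was called when the ratio of IP to input differed by more than 1.5-fold between MA and control and each group held at least 10 reads. Of all 2467 such peaks 27.1% were higher and 24.2% lower after MA treatment. Without scaling, which moves every log2 change up by 0.86, 1564 were higher and 184 lower, in place of 668 and 596. Scaling to the totals centres the changes, so the near balance of higher and lower peaks is no result. The paper scaled on background regions without m6A and reports more genes with increased than with weakened m6A. Of the 8 pathway peaks that could be called, 2 were higher and 3 lower, which is near the share over all peaks. Their median log2 change was -0.36, and that of all such peaks 0.02. Both medians depend on the scaling, and the shift of 0.86 without it is larger than either.

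The Irs1 peak, on chromosome 1 from 82289902 to 82289976 in the coding sequence, held 163 input and 264 IP reads in control cells, and 125 input and 122 IP reads after MA treatment. Relative to the IP to input ratio of all peaks together, the log2 ratio of this peak was 0.81 for the control and -0.78 for MA. The log2 change of the ratio was -1.59 (95% counting interval -2.04 to -1.13), and -0.73 without scaling. The peak on Shc1, an adaptor gene, held 89 input and 63 IP reads in control cells, and 46 and 134 after MA treatment. Its log2 change was 1.17 (interval 0.50 to 1.84). Foxo4, for a transcription factor that AKT inhibits, had a peak with 23, 14, 16 and 46 reads in the same order and a log2 change of 1.33 (interval 0.09 to 2.58). The peak on Sos1, for an activator of RAS, held 24 and 43 reads in control cells and 20 and 26 after MA treatment. Its log2 change was -1.32 (interval -2.41 to -0.22), and -0.46 without scaling, which is within 1.5-fold. A Pik3r3 peak of 508 bases had a log2 change of -0.68, with an interval from -1.50 to 0.14 that includes 0, and took the other sign without scaling. Pik3r3 encodes a regulatory subunit of PI3K. The other 3 peaks within 1.5-fold, on Grb2 and Pik3r3, ranged from -0.38 to -0.30. Without scaling they took the other sign, at 0.51 and 0.55 for Grb2 and 0.48 for Pik3r3.

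**Figure D5:**
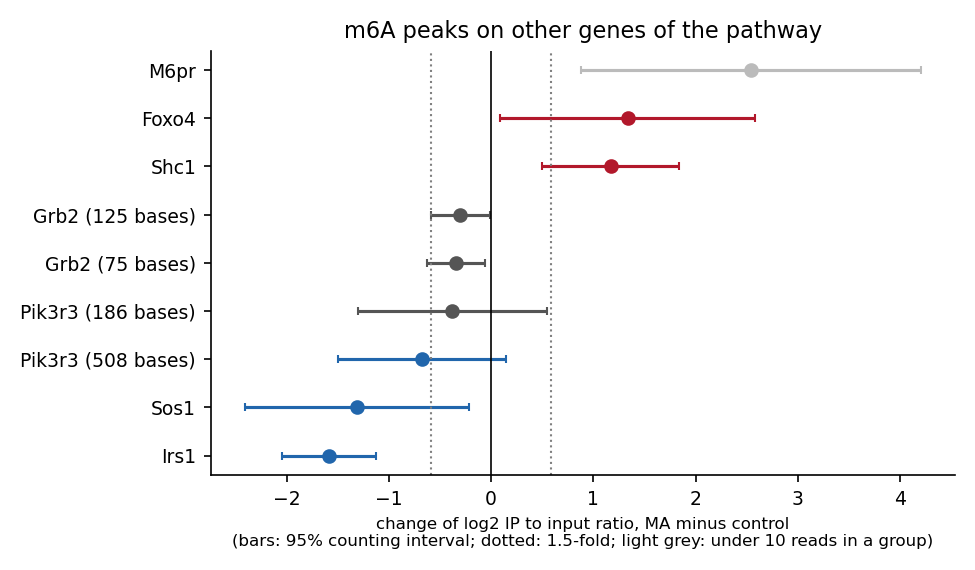
Change of the log2 ratio of IP to input reads, MA minus control, for the 9 peaks on other genes of the pathway, with 95% counting intervals as bars and dotted lines at 1.5-fold. Red points are higher, blue points lower and dark grey points within 1.5-fold, and light grey marks M6pr, which had under 10 reads in 2 groups.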

How the data were processed

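Input and anti-m6A IP libraries of MA-treated and control HT22 cells were grouped by the sample titles. As the study's methods state, fastp was used on the raw reads, HISAT2 served for alignment to mm10, StringTie and DESeq2 for expression and exomePeak2 for peaks. The kit marks strand and labels molecules with unique identifiers. Tool versions are not given in the sources used here. The base mean, a signal deposited by the authors, averages counts divided by size factors. Deposited counts of reads per peak are pooled by the authors over the 3 replicates of a group. The tables also hold fold changes, log2 ratios, standard errors and p-values of the authors' comparisons, which are not used here. Columns of single libraries left out number 0.

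Lengths and positions came from GENCODE release M21 by gene symbol, which matched 24374 of 25239 genes. Peak ratios had 0.5 reads added. The search for whole counts was checked on made-up data with known answers. Python 3.11.15, numpy 2.4.6, pandas 2.3.3 and matplotlib 3.10.9 were used. The genes named are the members, a fixed list of pathway genes (receptors, substrates, PAPP-A proteases and their inhibitors) and those with a called peak; genes named beside these, such as Igfals, Htra1 and Pik3cd, were chosen after their values were seen. The pathway list was used without 1 gene, which is not reported here. Members and lists were chosen with earlier results of these data known. Alternatives changed the scaling, the fold, the minimum of reads, the added reads and the transcript length.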

Additional observations from a re-analysis of the deposited data

How the results depend on the processing

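Dividing by the union of all exons left 4 members above the median of all genes above 0, and the levels per kb fell by at most 1.47-fold. Over all peaks, more than 1.2-fold gave 983 higher and 913 lower peaks, more than 2-fold gave 371 and 336, and at least 30 reads in each group gave 331 and 313. Without scaling there were 1564 higher and 184 lower peaks, since this shifts every log2 change by 0.86. The Pik3r3 peak of 508 bases then had a log2 change of 0.18, the only called pathway peak that took the other sign under the alternatives. Scaling to the median and dropping the minimum of reads kept both counts within 1.5 times.

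No paired analysis was possible because the reads are pooled over replicates and the base mean over libraries. Leaving out a replicate was not run for the same reason. Alternatives set for peaks on the members were not run, since no peak lies on them, and the ratio of input reads, motifs and transcript regions were likewise not compared. Low counts limit Igfbp2, Igfbp3, Igfbp5 and Igf2, which each rest on a count of at most 17. Whether depth set these low counts was not tested.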
